A study of Rattus norvegicus with 6 samples.

Results

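The genes described here mark the projection neurons of the striatum, the cells that carry its output: 3 genes of the direct pathway (Drd1, Tac1 and Pdyn), 3 of the indirect pathway (Drd2, Penk and Adora2a), and Ppp1r1b, which both kinds of neuron express. They are found in the files by Ensembl gene number together with chromosome, a rule that uses no measured value, although the genes were picked with earlier results of these data known. They make up 7 of the 32552 annotated genes in the files. All 7 lay on the chromosome the rule names and all 7 passed the filter on low counts that left 15252 genes for testing. Striatum was taken from male Sprague-Dawley rats after intraperitoneal injections over 15 days. Controls received 0.9% NaCl (3 samples) and the other group received MnCl2 at 25 mg/kg (3 samples, called Mn-exposed). The labels name no transgene or other treatment. Nor do they state that each sample is from its own animal, and the spread that the p-values rest on may therefore be technical. Libraries are named here control 1, 2 and 3 and Mn-exposed 1, 2 and 3. In the sample titles they carry, in this order, the numbers 1, 2 and 4 (controls) and 13, 14 and 17 (Mn-exposed).

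Projection neurons are GABAergic and make up most neurons of the striatum. Direct pathway neurons project to the output nuclei of the basal ganglia and are known for D1 dopamine receptors, substance P and dynorphin. Indirect pathway neurons reach the same nuclei through the external globus pallidus, and are known for D2 dopamine receptors, adenosine receptors (Adora2a) and enkephalin. Dopamine raises cyclic AMP signalling in the first kind through D1 receptors and lowers it in the second through D2 receptors, and manganese in excess accumulates in the basal ganglia. The study's title concerns mitochondrial dynamics in manganese toxicity; the comparison of these 7 genes asks whether the transcripts of either output pathway differed between exposed and control striatum.

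The 7 genes varied widely between samples of the same group. Every member had its lowest control value in control 1 and its lowest Mn-exposed value in Mn-exposed 2. None of the 7 passed the edgeR test for a difference between groups (0% of all genes tested did). None had groups that did not overlap, against 12.1% of all genes tested. In ratios within a library, looked at after the data were seen, Penk stood higher relative to Drd2, Adora2a and Ppp1r1b in each Mn-exposed library than in any control, and Pdyn stood higher relative to Tac1, Drd2, Adora2a and Ppp1r1b, with differences that the exact test for 3 against 3 libraries could not carry past 0.05. Such separated ratios were also found for 12.3% to 24.8% of the other genes that vary closely with Pdyn, Penk, Drd2, Adora2a or Ppp1r1b, and for 32.3% of those that vary closely with Tac1.

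Total counts ran from 21754379 to 32569760 per library. The smallest count of any member in any library was 1357 (Drd1 in control 1), for which counting error alone gives a coefficient of variation of 2.71%. Transcripts of the mitochondrial genome took 16.6% of counts in control 1, which was the highest share, and 8.64% in Mn-exposed 2, which was the lowest; the other 4 libraries lay between 12.4% and 13.9%. Control 1 and Mn-exposed 2, the lowest library of its group for every member, thus had the highest and the lowest mitochondrial share. In bulk tissue, fewer cells of a type and less RNA per cell cannot be told apart.

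The genes lie on 7 chromosomes of the Rnor_6.0 build. Drd1 (ENSRNOG00000023688) is annotated as a single exon of 2236 bases on the plus strand at chr17:11101306-11103541. Tac1 (ENSRNOG00000007374) has 7 merged exons on the plus strand at chr4:33638709-33646819, and Pdyn (ENSRNOG00000026036) has 4 on the minus strand at chr3:122194329-122206671. Drd2 (ENSRNOG00000008428), the longest locus at 64866 bases, has 8 merged exons on the plus strand at chr8:53678777-53743642. Penk (ENSRNOG00000008943) has 3 on the minus strand at chr5:17056419-17061837, Adora2a (ENSRNOG00000001302) has 3 on the minus strand at chr20:14265252-14282873, and Ppp1r1b (ENSRNOG00000028404) has 7 on the plus strand at chr10:86303727-86312762. No other annotated gene shared exonic bases with any of the 7, and the span of 1 other gene (ENSRNOG00000036484) overlapped that of Penk. The length of the locus was 95.2% to 101.5% of that of the RefSeq gene of the same symbol for 6 members. For Drd1 it was 49.2%, so reads outside the single annotated exon were not counted.

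Promoter sequence is shown for Pdyn and Drd2, chosen by where their windows begin and not by their levels, and for a match in Tac1. The RefSeq table (GRCr8 build) held a window of 300 bases around the start of 4 of the 7 members (Drd1, Tac1, Pdyn and Drd2). The 250 bases before the start are given for Pdyn (minus strand, chr3:137366504-137366753) and Drd2 (plus strand, chr8:58605153-58605402), whose windows begin at the end of the RefSeq gene. The windows of Tac1 and Drd1 do not begin at the outer end of the RefSeq gene. For Tac1 only a short stretch around the match is given (plus strand, chr4:36645364-36645393), and for Drd1 none. Capitals mark the matches to the motifs described next: a TATA box and a CAAT box on the opposite strand in Pdyn, and a sequence like the cyclic AMP response element in Tac1.
Pdyn: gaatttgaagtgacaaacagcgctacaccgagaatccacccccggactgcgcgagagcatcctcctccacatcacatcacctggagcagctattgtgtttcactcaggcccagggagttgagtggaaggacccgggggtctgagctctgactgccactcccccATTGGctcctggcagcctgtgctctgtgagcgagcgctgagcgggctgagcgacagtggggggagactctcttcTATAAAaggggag
Drd2: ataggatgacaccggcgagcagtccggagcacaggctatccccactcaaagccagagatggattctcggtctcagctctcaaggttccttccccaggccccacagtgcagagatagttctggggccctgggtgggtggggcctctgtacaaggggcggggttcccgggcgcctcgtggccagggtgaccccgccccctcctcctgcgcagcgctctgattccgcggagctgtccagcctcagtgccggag
Tac1: ttccctaaaatTGCGTCAtttcgaacccaa

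Motifs were searched on both strands of the 4 windows, and none of them contains another. The sequence TGCGTCA, which is like the cyclic AMP response element, began 208 bases before the start of Tac1, and 1.9% of all 33465 windows in the table held it. The TATA box, searched as TATAAA, began 13 bases before the start of Pdyn, and 14.2% of all windows held one. The CAAT box, searched as CCAAT, matched at 1 place in Pdyn, 87 bases before its start, and at 2 places in Tac1, against 37.5% of all windows with a match. The cyclic AMP response element itself, searched as TGACGTCA (1.83% of all windows), was in none of the 4 windows. The AP-1 element, searched as TGAGTCA (4.63% of all windows), was in none of them either, and the Drd1 and Drd2 windows matched none of the motifs. These matches describe letters only and are not measured binding.

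Levels are given first as CPM, the reads of a gene divided by the library's total and put on a common scale, after TMM scaling, which evens out differences in composition between libraries. Drd1 encodes the D1 dopamine receptor, which raises cyclic AMP. It stood at 64.4, 232 and 247 CPM in the controls (1 to 3), against 162, 101 and 176 in the exposed libraries (1 to 3). The lowest and the highest library were thus both controls, 3.83-fold apart, and the Mn-exposed libraries lay between them. The means were 181 ± 101 CPM for controls and 147 ± 39.9 for exposed samples (SD, n = 3 each).

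Tac1 encodes the precursor of substance P and neurokinin A. It stood at 127, 324 and 388 CPM in the controls (1 to 3), against 178, 124 and 208 in the exposed libraries (1 to 3), with means of 280 ± 136 and 170 ± 42.5 CPM (SD, n = 3 each). Controls 2 and 3 lay above every Mn-exposed library and control 1 lay among them. Pdyn, the precursor of the dynorphins, which act on kappa opioid receptors, was the only member with a higher mean after exposure. It stood at 64.6, 194 and 122 CPM in the controls (1 to 3), against 194, 99.8 and 224 in the exposed libraries (means 127 ± 64.7 and 173 ± 64.8 CPM). Control 2 and Mn-exposed 1 had the same level to 3 digits, and the groups overlapped.

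Drd2 encodes the D2 dopamine receptor, which lowers cyclic AMP. Its levels were 175, 338 and 381 CPM in the controls (1 to 3), against 267, 131 and 229 in the exposed libraries (means 298 ± 109 and 209 ± 70.5 CPM, SD, n = 3 each). Adora2a, the adenosine receptor that opposes D2 signalling in the same neurons, stood at 283, 478 and 585 CPM in the controls (1 to 3), against 472, 198 and 311 in the exposed libraries (means 449 ± 153 and 327 ± 138 CPM). In both genes control 2 and 3 were above all Mn-exposed libraries and control 1 was below 2 of the 3.

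Penk, the precursor of the enkephalins, stood at 678, 1240 and 1360 CPM in the controls (1 to 3), against 1430, 686 and 1090 in the exposed libraries (1 to 3). Its means of 1090 ± 365 and 1070 ± 372 CPM (SD, n = 3 each) were the closest of any member, and its highest library was Mn-exposed 1. Ppp1r1b encodes DARPP-32, an inhibitor of protein phosphatase-1 through which cyclic AMP signals of both pathways pass. It stood at 1820, 2860 and 3470 CPM in the controls (1 to 3), against 2680, 1200 and 1790 in the exposed libraries (means 2720 ± 835 and 1890 ± 742 CPM).

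**Figure D1:**
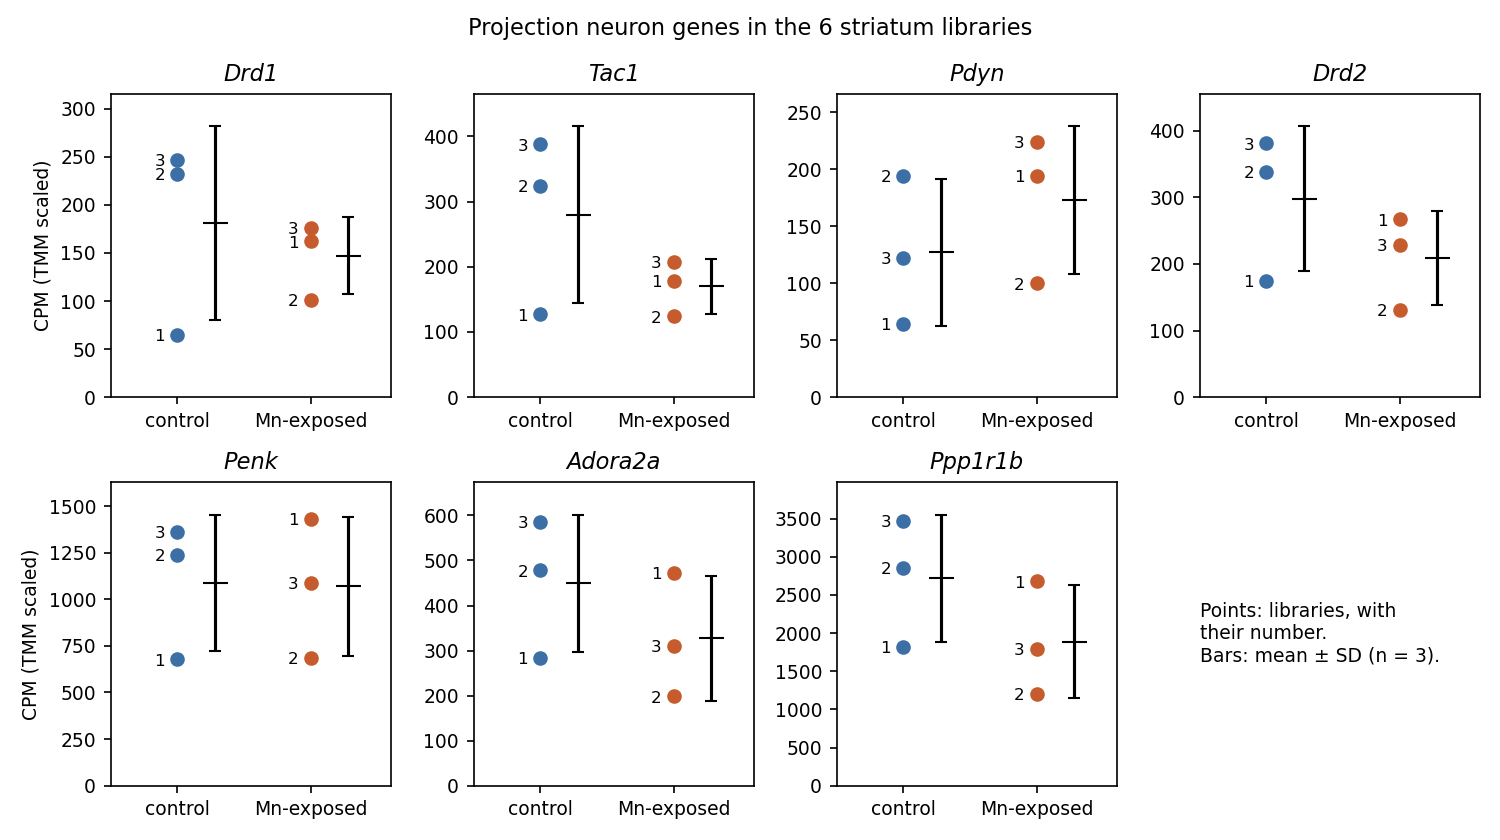
Level of each of the 7 genes in CPM (TMM scaled, linear axis from 0) in the control and Mn-exposed libraries. Points are libraries with their number and bars are the mean ± SD of 3 libraries; in every panel control 1 is the lowest control, Mn-exposed 2 is the lowest Mn-exposed library, and the groups overlap.

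To compare levels between genes, CPM were divided by the exonic length in kilobases. Over the 6 libraries the order of the means was Ppp1r1b (1320 ± 482 CPM per kilobase), Penk (635 ± 194), Tac1 (191 ± 92.1), Adora2a (156 ± 58.9), Drd2 (92.3 ± 34.8), Drd1 (73.2 ± 31.9) and Pdyn (61.3 ± 25.9; SD over the 6 libraries). All 7 ranked among the more abundant genes per length: Ppp1r1b was above 99.9% and Pdyn, the lowest, above 91.7% of the genes tested, so the defining transcripts of striatal projection neurons were plentiful in the tissue labelled striatum. Of the neighbours in this order, only Penk and Tac1 had ranges that did not overlap. Within single libraries Ppp1r1b exceeded Penk, Adora2a exceeded Drd2 and Drd2 exceeded Drd1 in 6 of 6, while Tac1 exceeded Adora2a and Drd1 exceeded Pdyn in 4 of 6.

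No member passed the test for a difference between Mn-exposed and control striatum. With edgeR's quasi-likelihood test over all 15252 genes, 0 of the 7 had an adjusted p under 0.05 (0% of all genes tested did) and 0 had an unadjusted p under 0.05 (7.47% of all genes tested did). DESeq2 called 0 of the 7, against 0.584% of the genes to which it gave an adjusted p (2.08% with the same-numbered libraries as a block, again 0 of the 7), and limma-voom called 0 of the 7, against 0% of the genes tested. The CPM of the groups overlapped in 7 of 7 members, whereas the groups stood apart for 12.1% of all genes tested. The estimates were below 0 in 6 of the 7, as in 47.4% of all genes, with a median log2 fold change of -0.46 against 0.02 over all genes. The members varied together across libraries, so these 6 signs are not 6 separate observations.

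Of the direct pathway genes, Tac1 had the lowest estimate, a log2 fold change of -0.72 (SE 0.40, 95% interval -1.67 to 0.23; edgeR adjusted p = 0.677). For Drd1 it was -0.30 (SE 0.48, interval -1.43 to 0.83; edgeR adjusted p = 0.862), and for Pdyn 0.44 (SE 0.44, interval -0.58 to 1.47; edgeR adjusted p = 0.782). Among indirect pathway genes, Drd2 stood at -0.52 (SE 0.36, interval -1.36 to 0.33; edgeR adjusted p = 0.719) and Adora2a at -0.46 (SE 0.37, interval -1.33 to 0.42; edgeR adjusted p = 0.743). Penk stood at -0.03 (SE 0.35, interval -0.85 to 0.79; edgeR adjusted p = 0.978), and Ppp1r1b at -0.52 (SE 0.35, interval -1.35 to 0.31; edgeR adjusted p = 0.713). The intervals were wide: that of Penk ran from 0.554-fold to 1.72-fold and that of Drd1 from 0.37-fold to 1.77-fold, so the data do not show that these genes were equal between the groups.

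When single libraries were left out, the estimates of several members moved by over 1.5 times. Without control 1, Tac1 had a log2 fold change of -1.07 (edgeR unadjusted p = 0.00306, adjusted p = 0.272) and was called by DESeq2 (adjusted p = 0.0032). Drd1 then stood at -0.71 (edgeR unadjusted p = 0.024) and Drd2 at -0.79 (edgeR unadjusted p = 0.0351), each with an edgeR adjusted p of at least 0.501. How many of all genes pass such thresholds with a library left out was not determined, so these p-values have no background beside them. Without Mn-exposed 1, Ppp1r1b stood at -0.86 (edgeR unadjusted p = 0.0429, adjusted p = 0.315) and Adora2a at -0.82. Without Mn-exposed 2 these were -0.28 and -0.19, and without control 3 they were -0.31 and -0.22. Pdyn ran from 0.13 without control 1 to 0.89 without control 2. With control 3 left out, the estimates were -0.41 for Tac1, -0.02 for Drd1 and -0.30 for Drd2, and without Mn-exposed 2 they were -0.54, -0.09 and -0.26.

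Within groups the spread of the members was larger than that of most genes. The within-group SD of log2 CPM was 0.83 for Drd1, 0.71 for Pdyn, 0.67 for Tac1, 0.59 for Adora2a, 0.57 for Drd2, 0.54 for Penk and 0.53 for Ppp1r1b, against a median of 0.25 over all genes tested. Drd1 thus varied more than 95.3% of genes and Ppp1r1b, the least variable member, more than 84.5%. In control 1 the members lay from 0.53 (Ppp1r1b) to 1.26 (Drd1) below their control mean on the log2 scale, and the 3 direct pathway genes, at -1.26, -0.99 and -0.83, lay further below than the indirect pathway genes, at -0.69, -0.62 and -0.60. In Mn-exposed 2 all 7 lay below their group mean, from -0.71 (Pdyn) to -0.42 (Tac1), without such an order. In Mn-exposed 1 the indirect pathway genes were 0.42 to 0.62 above their mean and the direct pathway genes 0.10 to 0.25 above it.

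**Figure D2:**
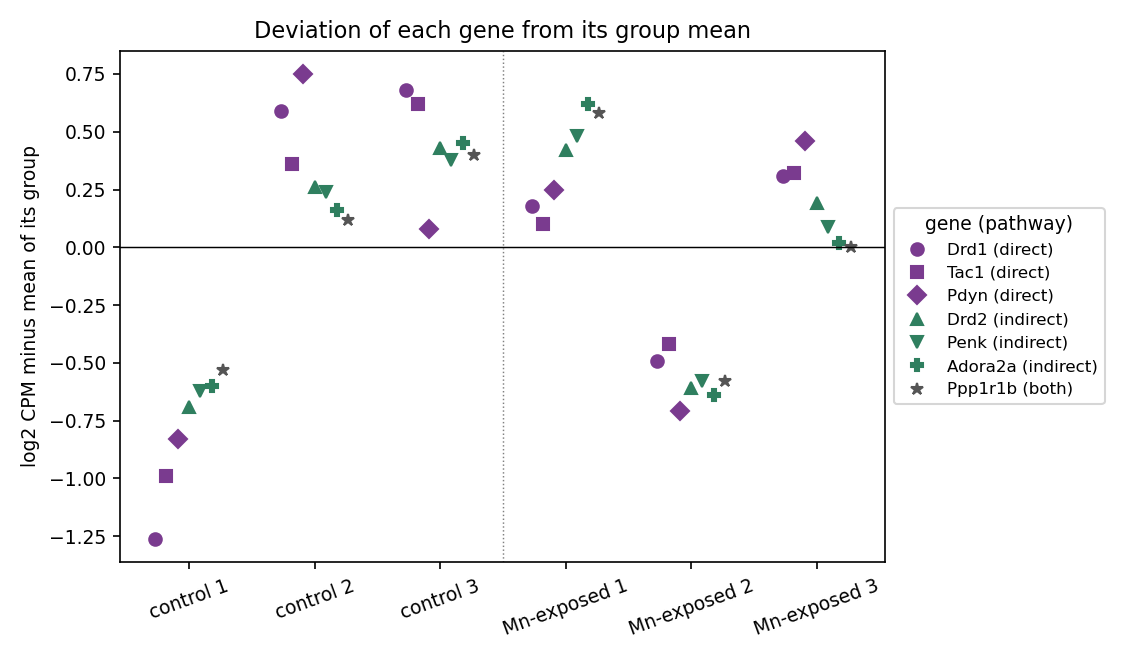
Deviation of log2 CPM from the mean of the gene's own group in each of the 6 libraries, with 1 symbol per gene and colours for the pathway. All 7 genes are below 0 in control 1 and in Mn-exposed 2, and in control 1 the direct pathway genes (-1.26 to -0.83) are lower than the other genes (-0.69 to -0.53).

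The covariation was measured for all 21 pairs of members over the 6 libraries. Pearson's r of log2 CPM was above 0 in all 21 pairs, with a median of 0.846 and a range of 0.363 to 0.995. How often pairs of other genes reached such values in these libraries was not determined. Exact permutation p-values (720 pairings, two-sided, adjusted over the 21 pairs) were under 0.05 for 6 pairs by Pearson's r, and for 0 pairs by Spearman's rho, whose smallest adjusted p was 0.0584. The strongest relation was between Adora2a and Ppp1r1b (r = 0.995, exact p = 0.00417, adjusted 0.0292; rho = 0.943, exact p = 0.0167, adjusted 0.0585). Drd2 followed Adora2a (r = 0.974, exact p = 0.00139, adjusted 0.0292; rho = 1, exact p = 0.00278, adjusted 0.0584) and Ppp1r1b (r = 0.967, exact p = 0.00278, adjusted 0.0292; rho = 0.943, exact p = 0.0167, adjusted 0.0585). These 3 r were 0.983, 0.904 and 0.875 once control 3 and Mn-exposed 2, the libraries farthest from the median on the first gene of each pair, were left out.

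Genes of different pathways also covaried. Tac1 of the direct pathway followed Drd2 of the indirect pathway (r = 0.935, exact p = 0.0111, adjusted 0.0466; rho = 0.943, exact p = 0.0167, adjusted 0.0585), with r = 0.836 without control 2 and 3. The other pairs past the threshold were Drd1 with Tac1 (r = 0.906, exact p = 0.0139, adjusted 0.0486; rho = 0.943, exact p = 0.0167, adjusted 0.0585) and Penk with Adora2a (r = 0.898, exact p = 0.0111, adjusted 0.0466; rho = 0.771, exact p = 0.103, adjusted 0.197). Without control 1 and Mn-exposed 2 these were 0.997 and 0.829. The median r was 0.769 over the 3 direct pathway pairs, 0.898 over the 3 indirect pathway pairs and 0.782 over the 9 pairs between pathways; these medians were not tested against each other. The dopamine receptors Drd1 and Drd2 correlated at r = 0.846 (exact p = 0.0347, adjusted 0.0729; rho = 0.886, exact p = 0.0333, adjusted 0.0874).

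Pdyn was the member least like the others. Its r was 0.363 with Ppp1r1b, 0.443 with Adora2a, 0.49 with Tac1, 0.52 with Drd2, 0.76 with Penk and 0.769 with Drd1, and 0 of its 6 pairs passed an adjusted p of 0.05. In the 5 of those pairs computed without control 1 and Mn-exposed 2, the sign turned, to between -0.836 and -0.573. Those positive values thus rest on these libraries. Tac1 with Pdyn was computed without control 2 and 3 instead (r = 0.928), so it cannot be set beside the other 5. Around the group means, Pdyn was closer to the rest: the deviations of the 6 libraries from their group means correlated at 0.739 to 0.877 with the other members. For all 21 pairs the median of such correlations was 0.877 (0.739 to 1), although 6 deviations around 2 means leave only 4 free values, and no p is given for them. Of 15225 other genes, 1.66% (for Pdyn) to 4.77% (for Drd1) had deviations that correlated at 0.9 or more with those of a member.

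**Figure D3:**
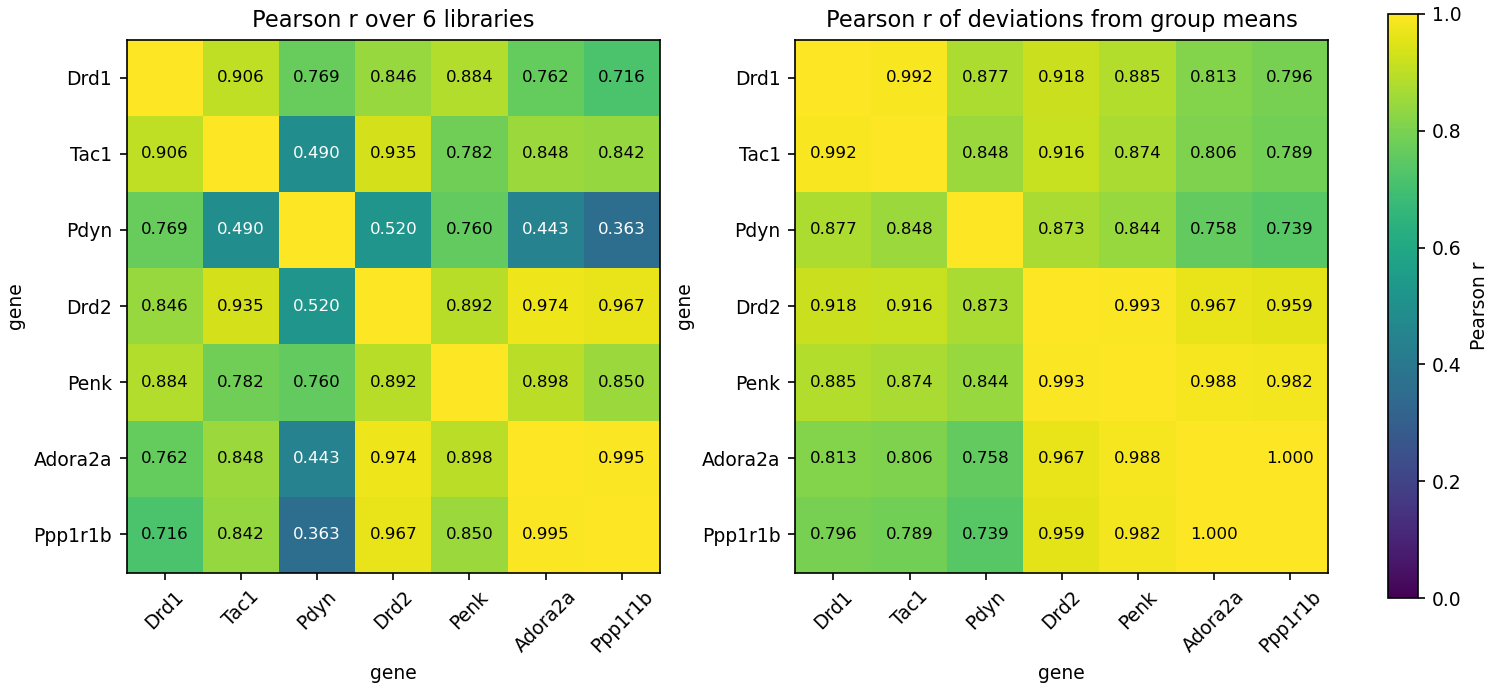
Pearson r between each pair of the 7 genes, computed on log2 CPM over 6 libraries (left) and on deviations from the group means (right), with colour from 0 to 1. On the left the row of Pdyn has the lowest values (0.363 to 0.769) and the block of Drd2, Penk, Adora2a and Ppp1r1b ranges from 0.85 to 0.995; on the right every pair is at least 0.739.

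Measures of the whole libraries were set beside the members. The first principal component of the 1000 most variable genes, computed without the members and without mitochondrial features, held 44.7% of the variance, and its r with the members ran from -0.595 (Ppp1r1b) to 0.133 (Pdyn). For the second component (30.1% of the variance) r ran from -0.847 (Tac1) to -0.0162 (Pdyn), for the mitochondrial share from -0.178 to 0.568, and for the total count from 0.182 to 0.589. The smallest exact permutation p of r, adjusted over all relations of the 4 measures with the 7 genes, was 0.698, and for rho 0.909. Without control 1 and Mn-exposed 2 the r of the mitochondrial share with Adora2a and Ppp1r1b was 0.936 and 0.933, and without Mn-exposed 2 and 3 the r of the first component with Tac1 was 0.977, so these values rest on the libraries included. With 6 libraries such a p does not show that the members were unrelated to these measures, and the part of these measures in the results was not tested.

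For each pathway, the 3 members were averaged as standardised log2 CPM, and among 11386 other genes with a mean of at least 5 CPM the 2 with the highest Pearson r over the 6 libraries were named by ID. For the direct pathway these were ENSRNOG00000016849 (r = 0.998, mean 88.2 CPM, plus strand, chr9:16586803-16609631) and ENSRNOG00000010905 (r = 0.996, mean 16.4 CPM, minus strand, chr4:32387741-32392007). The first stood at 66.3, 104 and 99.8 CPM in the controls (1 to 3), against 91.4, 74.6 and 93.4 in the exposed libraries (1 to 3). For the indirect pathway they were ENSRNOG00000024259 (r = 0.992, mean 16.2 CPM, plus strand, chr5:147288723-147296702) and ENSRNOG00000032437 (r = 0.990, mean 86.5 CPM, plus strand, chr19:60017746-60580651). An r of at least 0.9 was reached by 2.47% of these genes for the direct and by 1.48% for the indirect pathway, and one of at most -0.9 by 1.08% and 1.06%. As the best of many genes over 6 libraries, these values are descriptions and carry no test.

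A ratio of the reads of 2 members within a library needs no scaling between libraries and is free of whatever changes both genes alike. Of the ratios matched by role, that of the dopamine receptors, Drd1 to Drd2, was 0.367, 0.684 and 0.647 in the controls (1 to 3), against 0.606, 0.776 and 0.772 in the exposed libraries (1 to 3). The groups overlapped, and without control 1 the difference was 0.10 (log2 difference 0.39 with all libraries, two-sided exact permutation p = 0.3, adjusted over 3 ratios 0.3). Tac1 to Penk, the main peptide precursors of the pathways, was 0.188, 0.263 and 0.284 for controls and 0.124, 0.181 and 0.191 for exposed samples in the same order. Mn-exposed 3 was just above control 1, and without Mn-exposed 1 the difference was -0.38 (log2 difference -0.57, two-sided exact permutation p = 0.2, adjusted 0.3). Pdyn to Penk overlapped as well (log2 difference 0.54, two-sided exact permutation p = 0.3, adjusted 0.3; 0.35 without Mn-exposed 3).

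All 21 ratios were then computed, a step chosen after the data were seen. In 8 of the 21 the groups did not overlap (against 0.794% to 5.74% of all genes set against 1 member, and 5.65% to 32.3% of the genes that vary closely with it), each at p = 0.1 (two-sided, exact permutation), the smallest that 3 against 3 libraries can give, and an adjusted p over the 21 ratios of 0.263. Not every member varies that closely with the others. The 21 ratios come from only 7 genes, so the 8 are not separate results: 7 of them hold Pdyn or Penk, and the eighth is Drd1 to Tac1.

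The share of such ratios among other genes was used as the background. Over 15231 genes, the ratio to Ppp1r1b separated the groups in 4.87%, to Tac1 in 5.74%, to Drd2 in 4.56%, to Adora2a in 3.05%, to Pdyn in 2.21%, to Penk in 2.13% and to Drd1 in 0.794%. Most genes do not share the variation of the members, however. Among the 276 other genes whose deviations from the group means correlated with those of Ppp1r1b at 0.9 or more, the share was 20.7%, against 2 of 6 members (33.3%, Pdyn and Penk). The same shares were 24.8% against 2 of 6 members for Drd2, 14.1% against 2 of 6 for Adora2a, 32.3% against 2 of 6 for Tac1, 14.6% against 3 of 6 for Penk, 12.3% against 4 of 6 for Pdyn and 5.65% against 1 of 6 for Drd1. The 6 members were not held to this r of 0.9. The deviations of Pdyn correlated at 0.739 with those of Ppp1r1b and at no more than 0.877 with those of any member. The shares of members and of other genes are therefore not from matched sets. With 6 members per gene these shares are descriptions, and separated ratios were common among genes that vary together in these libraries.

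In ratios looked at after the data were seen, Penk stood higher relative to Drd2, Adora2a and Ppp1r1b in the Mn-exposed libraries. Each such ratio had a two-sided exact permutation p of 0.1 (adjusted 0.263). The log2 fold change of Penk itself was -0.03, and those of Drd2, Adora2a and Ppp1r1b were -0.52, -0.46 and -0.52. None of these genes passed the edgeR test. Penk to Ppp1r1b was 0.373, 0.432 and 0.393 in the controls (1 to 3), against 0.534, 0.57 and 0.607 in the exposed libraries (1 to 3), which is 0.40 ± 0.0301 against 0.57 ± 0.0369 (SD, n = 3 each). The log2 difference of 0.51 compares with within-group SDs of 0.11 and 0.09. Control 1 and Mn-exposed 2, the lowest of their groups in all members, lay with their own groups, as the lack of overlap requires. Penk to Adora2a was 2.39, 2.58 and 2.33 for controls and 3.03, 3.47 and 3.5 for exposed samples (log2 difference 0.45). Drd2 to Penk was 0.259, 0.274 and 0.28 for controls and 0.187, 0.19 and 0.21 for exposed samples (log2 difference -0.47). With any 1 library left out the log2 difference of Penk to Ppp1r1b stayed between 0.47 and 0.57. Groups that do not overlap stay apart whichever library is left out, so this range is no separate support. The ratios among the 3 other genes overlapped between the groups: Adora2a to Ppp1r1b was 0.164 ± 0.00703 for controls and 0.171 ± 0.00622 for exposed samples (log2 difference 0.06, two-sided exact permutation p = 0.3, adjusted 0.485), and Drd2 to Adora2a was 0.66 ± 0.0443 and 0.654 ± 0.0845 (log2 difference -0.02, two-sided exact permutation p = 1, adjusted 1).

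Pdyn stood higher relative to 4 members in the Mn-exposed libraries, in ratios also looked at after the data were seen. Each of these, and Drd1 to Tac1 below, had a two-sided exact permutation p of 0.1 (adjusted 0.263). Pdyn to Ppp1r1b was 0.0355, 0.0678 and 0.0351 in the controls (1 to 3), against 0.0724, 0.083 and 0.125 in the exposed libraries (log2 difference 1.05, or 2.07-fold). The gap between control 2 and Mn-exposed 1 was small beside the spread within groups (SD 0.54 and 0.41 on the log2 scale). Pdyn to Drd2 differed 2.01-fold and Pdyn to Adora2a 1.98-fold. Between the direct pathway peptides, Tac1 to Pdyn was 1.97, 1.67 and 3.19 for controls and 0.916, 1.24 and 0.927 for exposed samples (log2 difference -1.11), so Tac1 had more reads than Pdyn in each control and in 1 of the 3 Mn-exposed libraries (reads not divided by length). Drd1 to Tac1 was 0.618 ± 0.105 for controls and 0.859 ± 0.048 for exposed samples (SD, n = 3 each; log2 difference 0.49).

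**Figure D4:**
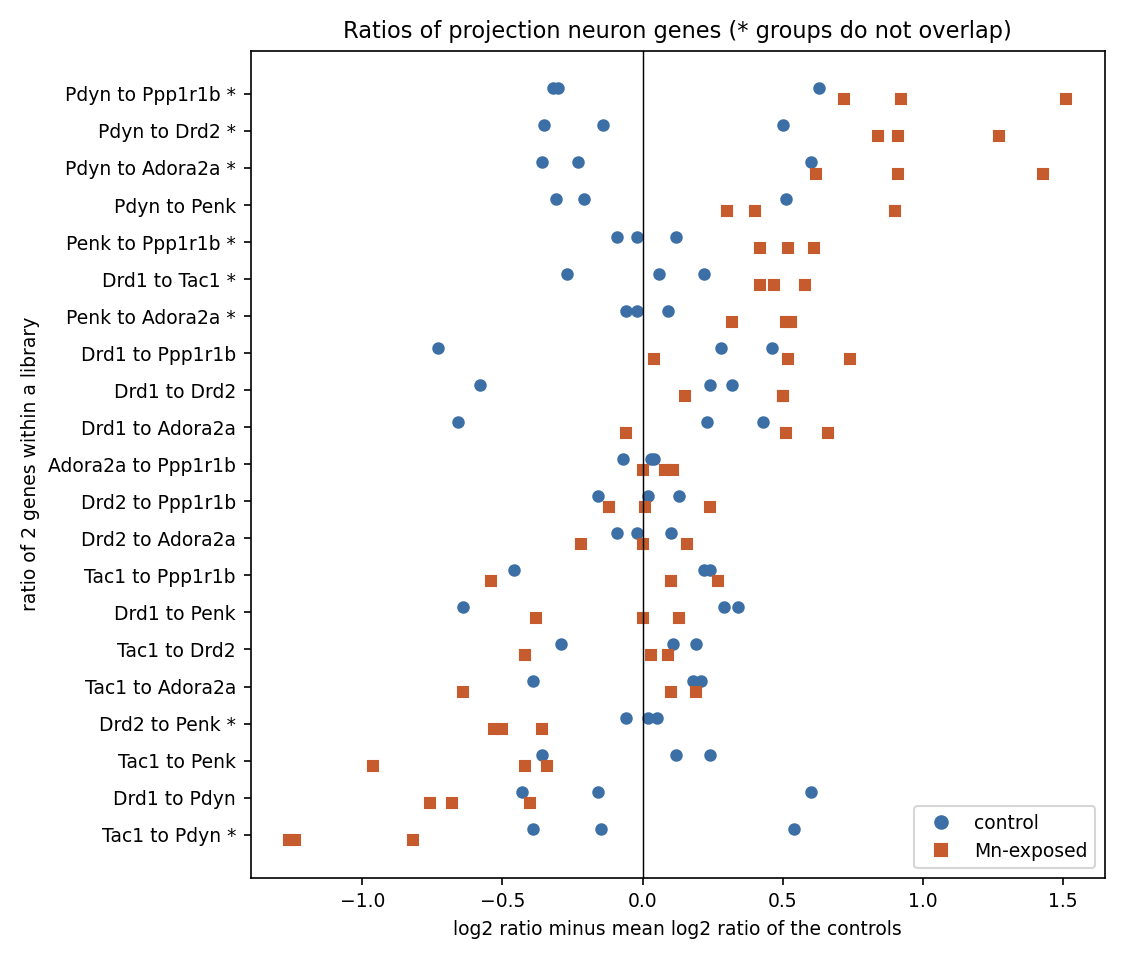
All 21 ratios of 2 genes within a library, as log2 ratio minus the mean of the controls, with 1 circle per control and 1 square per Mn-exposed library. In the 8 ratios with an asterisk the groups do not overlap; the 3 controls of Penk to Ppp1r1b lie close together and apart from the Mn-exposed libraries (difference 0.51), while those of Pdyn to Ppp1r1b are wide (difference 1.05).

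As a fit over all genes, Ppp1r1b was entered into edgeR as a covariate, also after the data were seen. For Penk this fit uses the same reads as its ratio to Ppp1r1b (log2 difference 0.51), so it is not a separate result. At equal Ppp1r1b, Penk had a log2 fold change of 0.52 (SE 0.18, 95% interval 0.09 to 0.94; edgeR unadjusted p = 0.0257, adjusted p = 0.943) and Pdyn of 1.03 (SE 0.43, interval -0.03 to 2.09; edgeR unadjusted p = 0.0543, adjusted p = 0.943). Of all genes, 3.61% had an unadjusted p under 0.05 in this fit and 0% passed the adjusted threshold; 1.71% had a smaller p than Penk. The estimates of Drd2 and Adora2a, -0.52 and -0.46 without the covariate, were 0.07 (interval -0.40 to 0.54) and 0.12 (interval -0.23 to 0.47) with it. Both genes varied closely with Ppp1r1b (r = 0.967 and 0.995), and these estimates restate that relation. The estimate of Tac1, -0.72 without the covariate, was -0.05 (interval -0.98 to 0.89) with it. Drd1 stood at 0.54 (interval -0.59 to 1.67).

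**Figure D5:**
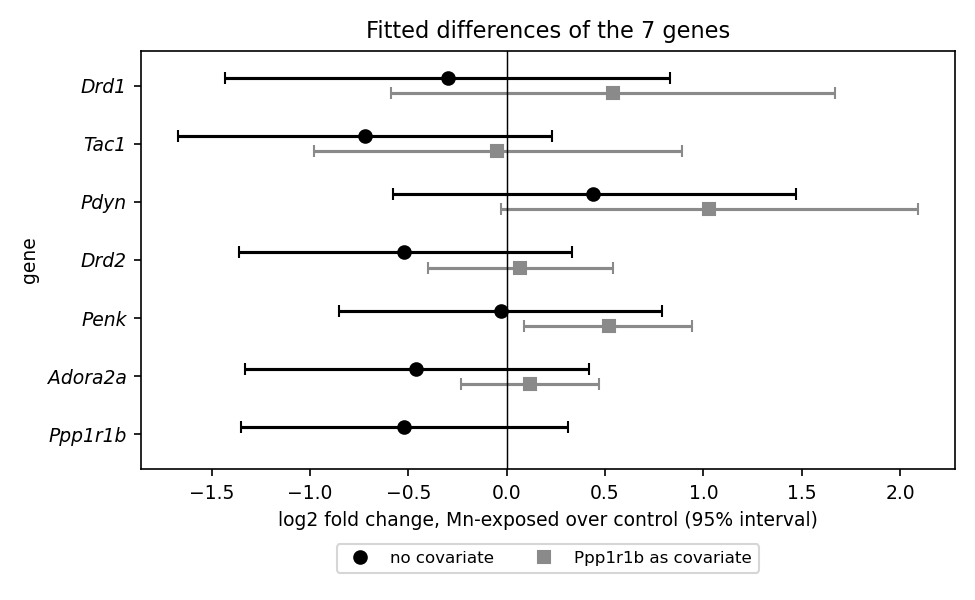
Fitted log2 fold change of Mn-exposed over control with its 95% interval for each gene, without a covariate (black circles) and with Ppp1r1b as a covariate (grey squares, 6 genes). All 7 intervals without the covariate include 0; with it, only that of Penk (0.09 to 0.94) does not, before adjustment over all genes.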

How the data were processed

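Poly(A)-selected RNA of 6 striatum samples was made into libraries with the NEBNext Ultra RNA kit, per the labels' protocols. The deposited values are raw whole-number counts, 1 per Ensembl gene and library, beside exon positions and exonic length per the file headers. Of tools, STAR 2.5.2b, bcl2fastq 2.17 and DESeq2 are listed in the submitters' processing notes, with the build Rnor_6.0. How reads were counted, with or without strand, is not given in the sources used here. The members and lists were chosen with earlier results of these data known. The files pair no ID with a symbol and 0 of 32552 IDs matched in the RefSeq table, so the symbols of the 7 genes rest on their gene numbers and chromosomes, and lists of other striatal and cell type genes were not analysed here. All 7 members were named, with the 2 genes most like each pathway.

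After filterByExpr and TMM scaling, all genes went through edgeR 4.0.16 under R 4.3.3 (robust quasi-likelihood fit, no block, Benjamini-Hochberg over 15252 genes, threshold 0.05; common biological coefficient of variation 22.8%). Ratios of reads within a library (log2) and correlations of log2 CPM had two-sided exact permutation tests. DESeq2 1.42.0, limma-voom 3.58.1, other scalings and filters, a replicate block and leaving out each library were the alternatives, and the fits were tested on simulated data. Deviations of same-numbered libraries from their group means correlated over genes at 0.417, 0.109 and 0.227, all above the 0.1 set for treating the numbers as pairs, although control 2 correlated more with Mn-exposed 3 (0.274); no label ties a number to a litter, day or batch. All 21 ratios, the Ppp1r1b covariate, DESeq2 with a block and DESeq2 without each library were added after the data were seen.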

Additional observations from a re-analysis of the deposited data

How the results depend on the processing

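The count of members past an adjusted p of 0.05 was 0 under all 17 alternatives run on all 7 or, with the covariate, 6 members: edgeR with DESeq2 size factors, library size alone, no filter, a mean CPM of at least 1, without mitochondrial features, a threshold of 0.1, DESeq2, limma-voom, a replicate block in edgeR and in DESeq2, Ppp1r1b as covariate, and each library left out in edgeR. Only DESeq2 without control 1 called a member (Tac1). At an unadjusted p under 0.05, edgeR gave 3 members without control 1 and 1 without Mn-exposed 1. The shares of all genes past these thresholds with a library left out were not determined. These counts therefore do not show an excess among the members. With the replicate block Tac1 stood at -0.61 (edgeR adjusted p = 0.508) and Pdyn at 0.52 (edgeR adjusted p = 0.674), and the block changed no call. The sign of Penk (-0.03) turned with library size alone (0.07) and with some libraries left out (-0.30 to 0.21). With Ppp1r1b as covariate the signs of Drd1 (0.54), Drd2 (0.07), Penk (0.52) and Adora2a (0.12) turned. Over the alternatives Tac1 ran from -1.07 to -0.05 and Pdyn from 0.13 to 1.03. With library size alone the median over all genes was 0.12 on the log2 scale, against 0.02 with TMM.

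The matched ratios kept their sign under all 8 alternatives each, with log2 differences from 0.10 to 0.55 for Drd1 to Drd2, -0.75 to -0.38 for Tac1 to Penk and 0.35 to 0.79 for Pdyn to Penk when 1 library was left out. The replicate block could not turn a sign, as a mean of paired differences equals the difference of the means. Nor could a pseudocount of 1, which is small beside these levels. The median r of 0.846 ran from 0.784 (2 farthest libraries left out) to 0.877 (deviations from group means), and 4 to 5 pairs instead of 6 passed with other scalings. Without the 2 farthest libraries r turned to -0.699 for Drd1 and Pdyn, -0.834 for Pdyn and Drd2, -0.573 for Pdyn and Penk, -0.829 for Pdyn and Adora2a and -0.836 for Pdyn and Ppp1r1b; the cause was not tested. Counting error was at most 2.71% for any member in any library, and the within-group SD was 0.53 to 0.83 on the log2 scale.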
